A study of Homo sapiens with 4 samples.

Results

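Glycolysis splits glucose into pyruvate, and the genes described here are the 31 that carry glucose into the cell, run glycolysis, exchange lactate, set how much pyruvate enters mitochondria and form the non-mitochondrial pentose phosphate pathway. They were chosen by gene symbol, and all 31 were found among the 36601 features of each count matrix. The cells were H9, a human embryonic stem cell line. Each of 4 libraries held 1 group: SIRT1 knockout cells at day 6, wild-type cells at day 6, SIRT1 knockout cells at day 0 and wild-type cells at day 0. Day 0 is the undifferentiated culture and day 6 a point on a protocol towards dopaminergic neurons, the neurons that make dopamine. All groups share the H9 background and, as far as the labels say, culture on Geltrex in mTeSR1 medium. The labels give neither the deleted part of SIRT1 nor the number of knockout clones. SIRT1 is a protein deacetylase that uses NAD, and the series sets its loss against wild type before and during differentiation, with metabolism in view.

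RNA was counted from transcript 3′ ends in droplets, where a unique molecular identifier (UMI) marks each captured RNA molecule. The knockout library held 4419 cells and the wild-type library 5372 cells at day 6, and 7275 and 5533 cells at day 0. A median cell had 13169 UMIs in the knockout and 8590 in wild type at day 6, and 8367 and 12645 at day 0. Summed over cells, a library held 51424092 to 73451883 UMIs. Cells were summed within a library, and levels are given per 1000000 UMIs (CPM). Pairs of libraries shared 5 to 18 cell barcodes. Pluripotency markers were present as labelled, with 12 of 12 at 10 CPM or more in both day 0 libraries, and 9 in the knockout and 11 in wild type at day 6. Those markers summed to 1539 CPM in the knockout and 1361 CPM in wild type at day 6, and to 3964 and 4834 CPM at day 0. The floor plate gene FOXA2 was the 1 of 10 floor plate markers at 10 CPM or more at day 6, in both genotypes.

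SIRT1, which checks the genotype labels, stood at 9.95 CPM in the knockout and 30.2 CPM in wild type at day 6. At day 0 the values were 7.11 CPM in the knockout and 32.3 CPM in wild type. The knockout libraries were the lower ones at both days, by 3.04-fold (2.77 to 3.34) at day 6 and 4.54-fold (4.13 to 5.01) at day 0. Since the deleted part is not given, 3′ counts may lie outside it, and remaining SIRT1 counts do not measure intact transcript. Here and below, the range after a ratio is its exact conditional binomial 95% interval, and the range after a level or share is an exact 95% interval. These intervals cover counting error only. With 1 library per group no difference has a replicate check, so no test between conditions was made and no p-value is given.

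As background, glycolysis has an upper part that spends ATP and a lower part that returns it. Phosphofructokinase, between fructose phosphates, is its main controlled step, and PFKFB enzymes make and break down fructose 2,6-bisphosphate, which activates it. Pluripotent stem cells are known for running glycolysis to lactate even with oxygen present. Under low oxygen the transcription factor HIF-1 raises many glycolytic genes together with PDK1, whose product holds pyruvate back from mitochondria. HIF binds DNA at the core letters ACGTG or GCGTG.

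Promoter sequences are shown for the 3 genes with the largest knockout ratios at day 0. Each line holds the 250 bases before a transcription start, 5′ to 3′ along the gene, from RefSeq on GRCh38.p14. Capitals mark ACGTG and GCGTG on either strand, so the reverse complements CACGT and CACGC are in capitals too. The windows are chr17:82228792-82229041 on the plus strand for SLC16A3, chr3:48556804-48557053 on the minus strand for PFKFB4 and chrX:78103998-78104247 on the plus strand for PGK1. SLC16A3 had 5 windows, and the one shown was picked because it holds ACGTG. The others held no ACGTG, and GCGTG stood in them from 0 to 3 times.
SLC16A3: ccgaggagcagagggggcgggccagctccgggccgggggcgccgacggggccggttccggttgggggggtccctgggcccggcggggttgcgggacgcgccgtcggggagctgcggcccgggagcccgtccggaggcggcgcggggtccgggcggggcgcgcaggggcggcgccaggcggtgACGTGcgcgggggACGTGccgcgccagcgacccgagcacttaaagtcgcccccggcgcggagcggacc
PFKFB4: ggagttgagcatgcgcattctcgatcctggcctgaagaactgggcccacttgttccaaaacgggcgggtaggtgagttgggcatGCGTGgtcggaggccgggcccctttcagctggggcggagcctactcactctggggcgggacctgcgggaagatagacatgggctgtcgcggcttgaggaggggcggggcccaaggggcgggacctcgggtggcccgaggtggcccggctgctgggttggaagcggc
PGK1: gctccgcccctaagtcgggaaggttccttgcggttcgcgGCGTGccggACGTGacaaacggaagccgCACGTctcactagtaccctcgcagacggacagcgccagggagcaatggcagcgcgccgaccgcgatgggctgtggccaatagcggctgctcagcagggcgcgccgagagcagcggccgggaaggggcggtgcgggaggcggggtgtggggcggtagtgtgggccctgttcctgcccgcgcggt
The SLC16A3 window held ACGTG 2 times and no GCGTG. The PFKFB4 window held GCGTG 1 time and no ACGTG. The PGK1 window held ACGTG 2 times and GCGTG 1 time.

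RefSeq windows were found for 28 of the 31 genes, 54 windows in all. ACGTG stood in 37.0% of those 54 windows and in 18.5% of the 35116 windows of all genes. GCGTG stood in 33.3% and 32.2%. CACGTG, the E-box, which contains ACGTG, stood in 13.0% and 6.34%. Of the 11 genes called between genotypes at either day, 8 had ACGTG in a window, and of the 17 other matched genes, 9 had it. Counted by gene in the same way, 21.7% of all 27305 genes had it. SLC2A1, called at day 0, had neither ACGTG nor GCGTG in its window. Genes with more windows have more chances of a match. A match describes these letters in this window and shows no binding.

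**Figure D1:**
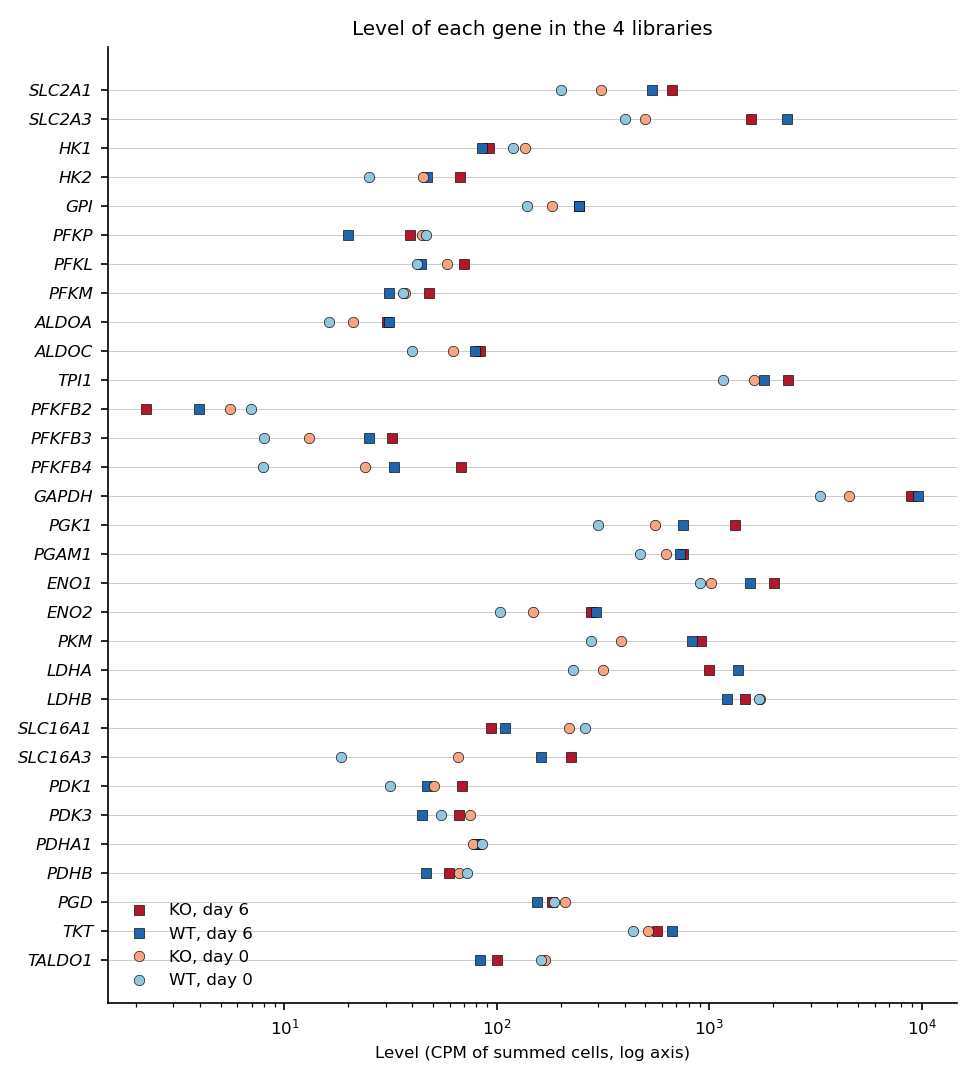
Level of each of the 31 genes in the 4 libraries, in CPM of the summed cells on a log axis. Squares are day 6 and circles day 0, in darker and lighter colours. For most glycolytic genes wild type at day 0 is the lowest point, and for SLC16A3 the points run from 18.5 CPM there to 222.5 CPM in the knockout at day 6.

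Together the 31 genes held 2.35% of all UMIs in the knockout and 2.31% in wild type at day 6. At day 0 they held 1.38% in the knockout and 1.09% in wild type. The sum was therefore 1.02 times the wild-type sum at day 6 and 1.28 times at day 0. Between days it was 1.70 times higher at day 6 in the knockout and 2.13 times in wild type. GAPDH alone, which oxidises glyceraldehyde 3-phosphate, stood at 8936 CPM in the knockout and 9635 CPM in wild type at day 6, and at 4561 CPM in the knockout and 3316 CPM in wild type at day 0.

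A gene counted as measured in a comparison if either library held it at 10 CPM or more, and as called if it also differed at least 1.5-fold with an interval excluding 1. By this rule 30 of the 31 genes were measured in each comparison. The exception was PFKFB2, which stood at 2.23 CPM in the knockout and 3.95 CPM in wild type at day 6 and at 5.55 CPM and 6.96 CPM at day 0.

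Knockout against wild type at day 0 addresses the genotype in undifferentiated cells. At day 0, 8 of the 30 measured genes were higher in the knockout, 0 were lower and 22 were neither. Over all 9095 measured genes, 1.48% were called higher and 2.05% lower. The median log2 ratio was 0.44 over the 30 genes and -0.01 over all measured genes, and 26 of the 30 lay above the median of all. With TMM scaling, which sets most genes near equal, the same number, 8, was higher, while 58.1% of calls over all genes were higher, against 42.1% with scaling to total UMIs. The 8 higher genes were SLC16A3, PFKFB4, PGK1, HK2, PFKFB3, PDK1, ALDOC and SLC2A1. Their products stand at glucose entry, its first phosphorylation, fructose 2,6-bisphosphate control, the aldolase step, the first ATP-yielding step, lactate export and the brake on pyruvate entry.

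Knockout against wild type at day 6 addresses the genotype during differentiation. At day 6, 5 of 30 genes were higher in the knockout, 0 lower and 25 neither, against 17.4% higher and 4.36% lower among all 8723 measured genes. The 5 genes were PFKFB4, PFKP, PGK1, PFKL and PFKM, which include all 3 phosphofructokinase genes of the list. The median log2 ratio over all measured genes was 0.25, so that genes in general lay above 1, and over the 30 genes it was 0.27. Of the 30, 16 lay above the median of all genes. With TMM scaling 3 of the 30 were higher (PFKFB4, PFKP and PGK1) and 2 lower (SLC2A3 and LDHA). Calls over all genes were then 7.22% higher and 8.04% lower, so that 47.3% of calls were higher, against 80.0% with scaling to total UMIs. PGK1 and PFKFB4 were called higher in the knockout at both days, under either of these 2 scalings. Taken over the median ratio of all genes, the day 6 ratio of PGK1 was 1.47, short of the limit. That of PFKFB4 was 1.75.

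**Figure D2:**
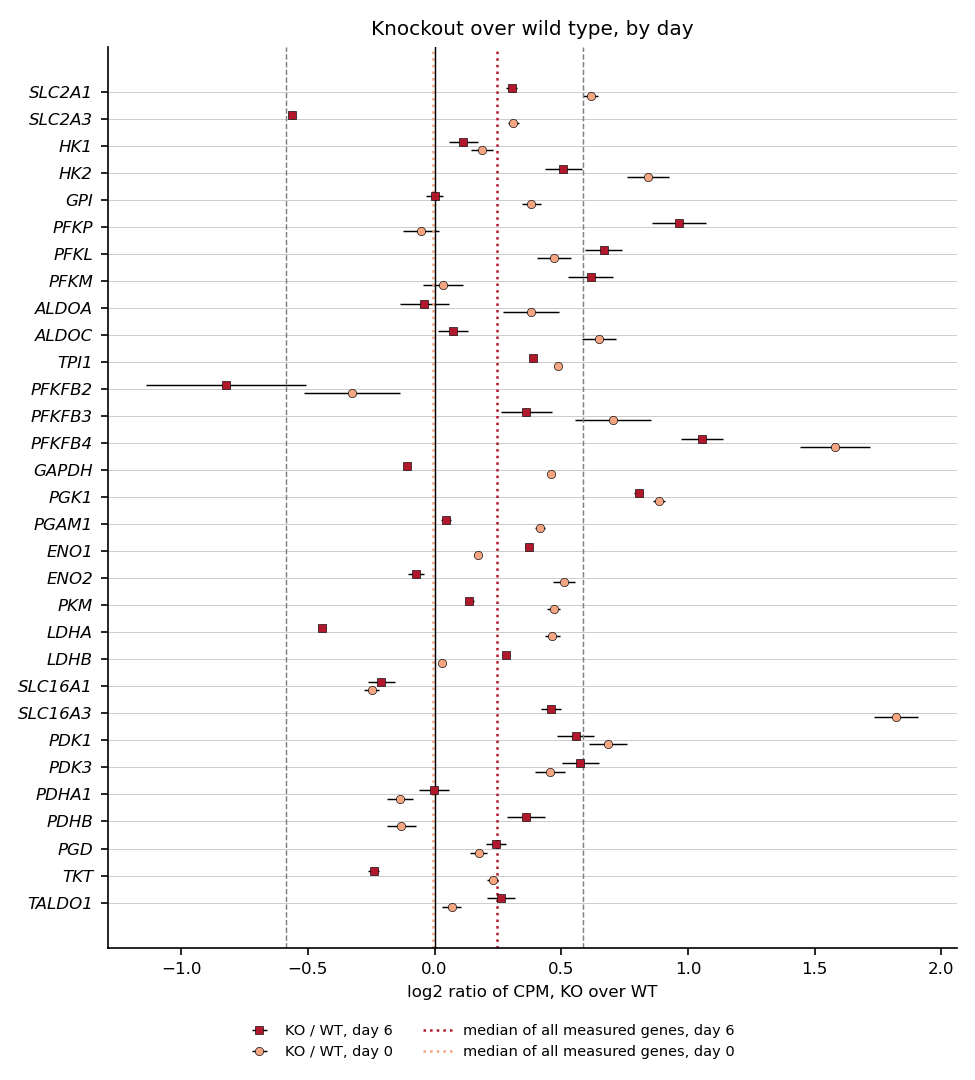
log2 ratio of CPM, knockout over wild type, for each gene at day 6 (squares) and day 0 (circles), with 95% counting intervals. Dotted lines are the medians of all measured genes, 0.25 at day 6 and -0.01 at day 0, and dashed lines mark 1.5-fold. Most day 0 points lie right of their dotted line, while day 6 points lie on both sides of theirs.

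Glucose enters through the transporters SLC2A1 (GLUT1) and SLC2A3 (GLUT3). SLC2A1 (chromosome 1, 42925375 to 42959176, minus strand, GRCh38 as for all positions here) stood at 667 CPM in the knockout and 540 CPM in wild type at day 6, and at 308 CPM and 201 CPM at day 0. The knockout lay above wild type by 1.53-fold (1.501 to 1.56) at day 0 and by 1.24-fold (1.22 to 1.25) at day 6, the day 6 value being short of the limit. SLC2A3 stood at 1573 CPM in the knockout and 2322 CPM in wild type at day 6, and at 497 CPM and 401 CPM at day 0. Its ratio was 0.678 (0.672 to 0.683) at day 6 and 1.24 (1.22 to 1.26) at day 0, on opposite sides of 1. SLC2A14, a near-identical copy of SLC2A3 from the list of other glycolysis genes, stood at 2.62 CPM in the knockout and 12.02 CPM in wild type at day 6, 4.59-fold lower. Reads of the pair can be split between them in counting, so both values are uncertain.

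Hexokinases trap glucose by phosphorylating it. HK2, the inducible form (chromosome 2, 74833981 to 74893359, plus strand), stood at 66.9 CPM in the knockout and 47.0 CPM in wild type at day 6, and at 45.1 CPM and 25.1 CPM at day 0. It was 1.79-fold (1.69 to 1.8995) higher in the knockout at day 0, with a ratio of 1.42 (1.35 to 1.496) at day 6. HK1, the housekeeping form, had ratios of 1.08 at day 6 (0.932 with TMM scaling) and 1.14 at day 0, neither called. Counts from 3′ ends are not corrected for how well each transcript is captured, so shares within a pair of genes are shares of UMIs. HK2 made up 42.1% (41.2 to 43.1) of the UMIs of both hexokinases in the knockout and 35.6% (34.5 to 36.8) in wild type at day 6. At day 0 its share was 25.01% (24.3 to 25.8) in the knockout and 17.5% (16.8 to 18.2) in wild type. GPI, the next enzyme, had ratios of 1.0007 at day 6 (0.862 with TMM scaling) and 1.302 at day 0.

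All 3 phosphofructokinase genes were called at day 6, and none of them at day 0. PFKP, the platelet-type subunit (chromosome 10, 3066333 to 3137712, plus strand), stood at 39.0 CPM in the knockout and 19.97 CPM in wild type at day 6. At day 0 it stood at 44.5 CPM in the knockout and 46.2 CPM in wild type. The day 6 wild-type library was the low one, and the other 3 lay close together. The ratio was 1.95 (1.81 to 2.0998) at day 6 and 0.964 (0.918 to 1.01) at day 0, where its direction turned with TMM scaling (1.01). PFKL, the liver-type subunit (chromosome 21, 44300051 to 44327376, plus strand), stood at 69.9 CPM in the knockout and 44.0 CPM in wild type at day 6, and at 58.2 CPM and 41.9 CPM at day 0, ratios of 1.59 (1.51 to 1.67) and 1.39 (1.32 to 1.45). PFKM, the muscle-type subunit (chromosome 12, 48105139 to 48146404, plus strand), stood at 47.8 CPM in the knockout and 31.2 CPM in wild type at day 6, and at 37.1 CPM and 36.2 CPM at day 0. Its ratio was 1.53 (1.44 to 1.63) at day 6 and 1.02 (0.9697 to 1.08) at day 0. With TMM scaling the day 6 ratios of PFKL (1.37) and PFKM (1.32) fell short of 1.5-fold, while PFKP stayed called at 1.68.

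The PFKFB genes set the level of the phosphofructokinase activator. PFKFB4 (chromosome 3, 48517684 to 48562015, minus strand), whose promoter with GCGTG is shown above, stood at 67.8 CPM in the knockout and 32.6 CPM in wild type at day 6. At day 0 it stood at 23.8 CPM in the knockout and 7.97 CPM in wild type. Each knockout library lay above the wild-type library of its day, by 2.08-fold (1.963 to 2.198) at day 6 and 2.99-fold (2.72 to 3.29) at day 0. Another coding gene overlaps PFKFB4 on the same strand, so its levels are uncertain. PFKFB3, the family member with the strongest kinase side (chromosome 10, 6144934 to 6254644, plus strand), stood at 32.0 CPM in the knockout and 24.9 CPM in wild type at day 6, and at 13.1 CPM and 8.03 CPM at day 0. It was 1.63-fold (1.47 to 1.81) higher in the knockout at day 0, with a ratio of 1.28 (1.198 to 1.38) at day 6. PFKFB4 made up 66.5% (65.3 to 67.6) of the UMIs of the 3 PFKFB genes in the knockout and 53.1% (51.3 to 54.9) in wild type at day 6. At day 0 the shares were 56.1% (54.3 to 57.8) in the knockout and 34.7% (32.4 to 37.0) in wild type.

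Aldolase splits the sugar and TPI1 interconverts the products. ALDOC, the brain-type aldolase (chromosome 17, 28573115 to 28577264, minus strand), stood at 83.1 CPM in the knockout and 79.0 CPM in wild type at day 6, and at 62.3 CPM and 39.8 CPM at day 0. It was 1.57-fold (1.495 to 1.64) higher in the knockout at day 0, and its day 6 ratio of 1.05 (1.01 to 1.0955) turned below 1 with TMM scaling (0.906). ALDOA had 30.2 CPM in the knockout and 31.1 CPM in wild type at day 6, and 21.1 CPM and 16.2 CPM at day 0. These low levels are uncertain, because another coding gene overlaps ALDOA on the same strand. ALDOC too is overlapped by a coding gene on its strand, so its levels and its day 0 call carry the same uncertainty. TPI1 had ratios of 1.31 (1.297 to 1.32) at day 6 and 1.403 (1.39 to 1.42) at day 0, neither called.

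In the lower part, PGK1, which makes the first ATP of glycolysis (chromosome X, 77910739 to 78129296, plus strand), was, like PFKFB4, called higher in all 4 comparisons. It stood at 1321 CPM in the knockout and 755 CPM in wild type at day 6, and at 552 CPM in the knockout and 299 CPM in wild type at day 0. The knockout was 1.75-fold (1.73 to 1.77) higher at day 6 and 1.85-fold (1.82 to 1.88) higher at day 0. GAPDH, the step before it, had a ratio of 0.927 (0.924 to 0.931) at day 6 and 1.38 (1.37 to 1.38) at day 0, so these neighbouring steps lay apart. ENO2, the neuronal enolase, stood at 277 CPM in the knockout and 292 CPM in wild type at day 6, and at 147 CPM and 103 CPM at day 0, ratios of 0.95 and 1.43. PKM, which makes pyruvate, stood at 914 CPM in the knockout and 831 CPM in wild type at day 6, and at 384 CPM and 278 CPM at day 0, ratios of 1.0998 and 1.38. The day 6 ratio of PKM turned to 0.947 with TMM scaling. PGAM1 and ENO1 had day 0 ratios of 1.34 and 1.13 and day 6 ratios of 1.03 and 1.29. PGAM1 was below 1 at day 6 with TMM scaling (0.888). Other coding genes overlap PGK1 and ENO2 on the same strand, so the levels of both are uncertain.

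Lactate is made by lactate dehydrogenase and crosses the membrane through monocarboxylate transporters. SLC16A3 (MCT4), known as the exporter of glycolytic cells (chromosome 17, 82228397 to 82261129, plus strand), stood at 222.5 CPM in the knockout and 162 CPM in wild type at day 6. At day 0 it stood at 65.3 CPM in the knockout and 18.5 CPM in wild type. Its ratio of 3.53 (3.33 to 3.76) at day 0 was the highest of the 30 genes, and at day 6 the ratio was 1.37 (1.34 to 1.41). With every cell thinned to 4000 UMIs, an SLC16A3 UMI was found in 22.3% (21.3 to 23.3) of knockout cells and 6.85% (6.20 to 7.55) of wild-type cells at day 0. Without thinning the shares came to 39.4% in the knockout and 17.4% in wild type. If free RNA made up 10% of each cell, 2.77% of knockout and 0.834% of wild-type cells would hold such a UMI after thinning. The sister transporter SLC16A1 (MCT1) was lower in the knockout, short of the limit, with 94.2 CPM in the knockout and 109 CPM in wild type at day 6, and 218 CPM and 259 CPM at day 0, ratios of 0.865 and 0.842. SLC16A3 made up 70.3% (69.6 to 70.9) of the UMIs of the 2 transporters in the knockout and 59.8% (59.0 to 60.6) in wild type at day 6. At day 0 its share was 23.0% (22.5 to 23.6) in the knockout and 6.65% (6.31 to 7.001) in wild type.

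LDHA, the subunit that favours lactate formation, stood at 998 CPM in the knockout and 1359 CPM in wild type at day 6, and at 316 CPM and 229 CPM at day 0. Its ratio was 0.735 (0.727 to 0.742) at day 6 and 1.38 (1.35 to 1.41) at day 0, short of the limit at both days. LDHB, which favours the return to pyruvate, had ratios of 1.22 and 1.02. LDHA made up 40.4% (40.2 to 40.7) of the UMIs of both subunits in the knockout and 52.9% (52.6 to 53.1) in wild type at day 6, and 15.4% (15.2 to 15.6) and 11.8% (11.7 to 12.01) at day 0. The direction of this share between genotypes was opposite at the 2 days.

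PDK1 (chromosome 2, 172555373 to 172608669, plus strand) inhibits pyruvate dehydrogenase. It stood at 68.6 CPM in the knockout and 46.7 CPM in wild type at day 6, and at 50.7 CPM and 31.5 CPM at day 0. The ratio was 1.61 (1.53 to 1.69) at day 0, called, and 1.47 (1.40 to 1.55) at day 6, just short of the limit. Its relative PDK3 had ratios of 1.49 and 1.37. The pyruvate dehydrogenase subunits PDHA1 and PDHB had ratios of 0.998 and 1.28 at day 6 and 0.9095 and 0.914 at day 0. Of the pentose phosphate genes, which make NADPH and ribose phosphate, none of 3 was called between genotypes. PGD had ratios of 1.18 at day 6 and 1.13 at day 0, TKT of 0.847 and 1.17, and TALDO1 of 1.198 and 1.05.

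The comparisons between days share libraries with those between genotypes, so they are given as levels of their own. In the knockout, 11 of 30 genes were higher at day 6, 2 lower and 17 neither, against 13.9% and 20.9% of all measured genes. In wild type, 18 were higher at day 6, 4 lower and 8 neither, against 11.7% and 37.2%. The median log2 ratio of the 30 genes was 0.43 in the knockout and 0.71 in wild type, against -0.09 and -0.35 over every gene measured. With TMM scaling the members higher and lower were 14 and 2 in the knockout and 19 and 2 in wild type, PDHB and TALDO1 no longer being called in wild type. The share of all calls that were higher was then 55.1% in the knockout, against 39.9%, and 58.1% in wild type, against 24.0%. The largest ratio belonged to SLC16A3, at 3.41 (3.298 to 3.52) in the knockout and 8.76 (8.27 to 9.29) in wild type. LDHA followed at 3.16 (3.11 to 3.204) and 5.93 (5.83 to 6.03), and SLC2A3 at 3.16 (3.125 to 3.2006) and 5.79 (5.72 to 5.86).

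PFKFB4 was 2.85-fold higher at day 6 in the knockout and 4.0955-fold in wild type, PFKFB3 2.44-fold and 3.10-fold, PKM 2.38-fold and 2.99-fold, PGK1 2.39-fold and 2.53-fold, and SLC2A1 2.16-fold and 2.69-fold. GAPDH (1.959-fold and 2.91-fold) and ENO2 (1.88-fold and 2.82-fold) passed 2-fold in wild type. All of these had the higher day ratio in wild type, whose day 0 level was the lower one. ENO1 had the order the other way, at 1.99-fold in the knockout and 1.73-fold in wild type. HK2, GPI, ALDOA, ALDOC, TPI1, PGAM1 and TKT were called higher at day 6 in wild type, at 1.53-fold to 1.99-fold, and had 1.11-fold to 1.49-fold in the knockout. The lower genes at day 6 were SLC16A1 (2.32-fold in the knockout, 2.38-fold in wild type) and TALDO1 (1.69-fold and 1.93-fold) in both genotypes, and PFKP (2.31-fold) and PDHB (1.56-fold) in wild type. In the knockout PFKP was 1.14-fold and PDHB 1.11-fold lower.

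Other genes of the same pathways, from lists chosen with earlier results of these data known, were mostly not called at day 0. Of 12 other measured glycolysis and glucose entry genes, 12 in lactate and pyruvate handling, 8 in the pentose phosphate pathway and 20 in the tricarboxylic acid cycle, 0 were called in either direction. Over all measured genes at day 0, 1.48% were called higher and 2.05% lower, so counts of 0 lie near that background. Of 8 glycogen genes, the branching enzyme GBE1 lay 2.58-fold (2.29 to 2.92) above wild type in knockout cells, and UGP2, which makes UDP-glucose, was 1.56-fold lower, a call lost with TMM scaling (ratio 0.671). Among 18 measured regulators of glycolysis, EGLN1, a prolyl hydroxylase that marks HIF for destruction and is itself a HIF target, was the 1 gene called, at 2.17-fold (2.01 to 2.34).

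At day 6 the regulators EGLN1 (2.22-fold) and EGLN3 (2.21-fold) were higher in the knockout, and MYC (2.34-fold), TXNIP (1.79-fold) and ARRDC4 (1.63-fold) lower. TXNIP and ARRDC4 are known as restrainers of glucose uptake, and MYC as an activator of glycolytic genes. PGM1 (1.77-fold), SLC2A13 (1.64-fold) and MINPP1 (1.54-fold) were higher among the other glycolysis genes, 3 of 13, and SLC2A14 was the 1 lower. RPIA (1.81-fold) and DERA (1.77-fold) were higher among 8 other pentose phosphate genes. Among the glycogen genes, PHKB (1.85-fold), PYGL (1.82-fold) and GYS1 (1.77-fold) were higher, and PYGB was 1.501-fold lower. Of 19 tricarboxylic acid cycle genes, IDH1 (1.65-fold), SUCLG2 (1.605-fold), SDHD (1.53-fold) and IDH2 (1.51-fold) were higher. Of 9 measured lactate and pyruvate genes 0 were called. These counts stand beside the 17.4% of all genes that were higher and the 4.36% that were lower at day 6. With TMM scaling, applied to these lists after seeing the data, 0 of the 19 tricarboxylic acid cycle genes were higher and 1 was lower. The ratios were 1.42 for IDH1, 1.38 for SUCLG2, 1.32 for SDHD and 1.301 for IDH2. Of 12 lactate and pyruvate genes measured with that scaling, 0 were higher and 1 was lower. Among the 8 other pentose phosphate genes 1 was lower. Of the other glycolysis genes PGM1 alone was then higher (1.52), while SLC2A13 had 1.41 and MINPP1 1.33. EGLN1, EGLN3, RPIA, DERA, PHKB, PYGL and GYS1 were still called higher, and MYC, TXNIP, ARRDC4, SLC2A14 and PYGB lower.

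HIF targets outside glycolysis, 32 genes in the list, were also higher in the knockout. They summed to 3728 CPM in the knockout and 2837 CPM in wild type at day 6, and to 1842 CPM and 1094 CPM at day 0. At day 0, 14 of 24 measured targets were higher in the knockout, 0 lower and 10 neither, with a median log2 ratio of 0.63, against 1.48% higher and a median of -0.01 over all genes. The largest ratios were those of the peptide hormone gene APLN (5.12-fold), INSIG2 (2.62-fold), ANKRD37 (2.57-fold), STC1 (2.53-fold), the mitophagy receptor BNIP3 (2.26-fold) and EGLN1. At day 6, 12 of 28 were higher and 3 lower, among them APLN and NDRG1, with a median of 0.42, against 17.4% higher, 4.36% lower and a median of 0.25 over all genes. With TMM scaling 5 of 28 were higher and 4 lower, with a median of 0.20, against 0.03 over all genes.

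Each cell was then thinned to 4000 UMIs, and the 31 genes and the 32 HIF targets were summed in it. The median sum of the 31 genes was 96 UMIs per cell in the knockout and 91 in wild type at day 6, and 53 and 42 at day 0. From the 5th to the 95th percentile it ran from 36 to 89 in the knockout at day 0 and from 30 to 63 in wild type at day 0. The knockout distribution at day 0 had a long upper side, and the variance over the mean was 4.92 there, 2.82 in wild type at day 0, 6.14 in the knockout at day 6 and 6.81 in wild type at day 6. Across cells, the Pearson correlation of both sums was 0.54 in the knockout and 0.52 in wild type at day 6, and 0.68 and 0.54 at day 0. This describes 4419 to 7275 cells that share a library, and cells are not replicates.

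**Figure D3:**
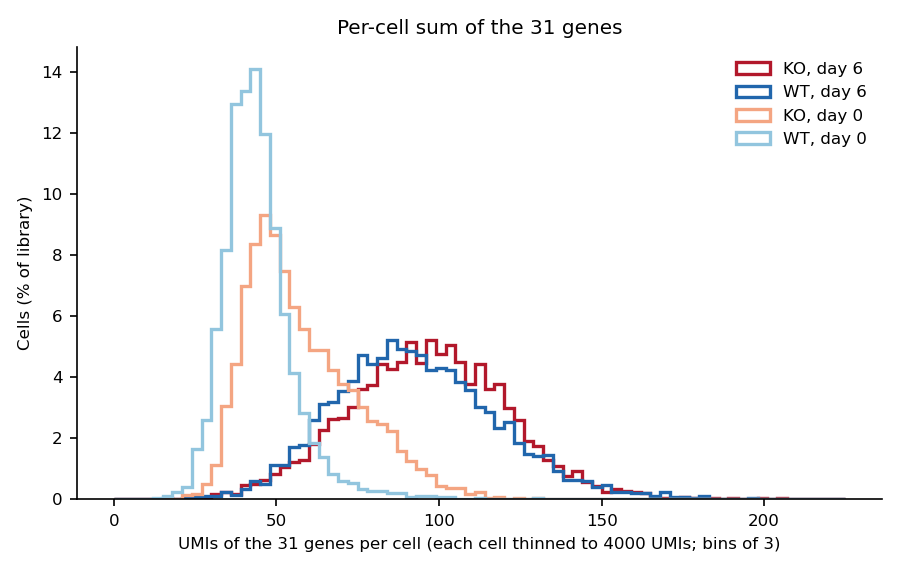
Distribution over cells of the summed UMIs of the 31 genes, with each cell thinned to 4000 UMIs. The horizontal axis is UMIs per cell and the vertical axis the percentage of the library's cells. Medians are 96 and 91 UMIs in knockout and wild type at day 6 and 53 and 42 at day 0, and the knockout at day 0 has a tail to the right.

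Cells of each library were split into 4 groups of equal size by their HIF target sum, and the highest group was set against the lowest. The groups cover unlike ranges in the libraries. At day 0 the highest held 11 to 34 HIF target UMIs in the knockout and 6 to 41 in wild type. The lowest held 0 to 4 and 0 to 2. Sizes of these ratios are therefore not matched between genotypes. SLC16A3 differed most at day 0. Its ratio was 2.39-fold (2.17 to 2.63) in the knockout and 2.19-fold (1.98 to 2.42) in wild type at day 6, and 7.51-fold (6.31 to 8.99) and 7.08-fold (5.11 to 10.02) at day 0. PFKFB4 differed 2.93-fold and 3.54-fold at day 6 and 3.86-fold and 5.48-fold at day 0. PGK1 had 1.76-fold and 1.65-fold at day 6, and 3.64-fold in the knockout against 1.91-fold in wild type at day 0. LDHA, which was not called between genotypes, had 3.52-fold in the knockout and 1.99-fold in wild type at day 0. At the other end PFKFB2, LDHB, SLC16A1, PGD, TALDO1, PDHA1, PDHB and PFKM had ratios from 0.799 to 1.11 in all 4 libraries. None of these 8 was called between genotypes at day 0, where PFKFB2 was not measured and so could not be called. PFKM was called higher in the knockout at day 6 (1.53-fold). All 8 genes called at day 0 had ratios above 1.5 in all 4 libraries, and so did LDHA. The lowest of the 8 genes was PFKFB3 in wild type at day 0, at 1.547 (1.04 to 2.31), from 68 against 44 UMIs.

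**Figure D4:**
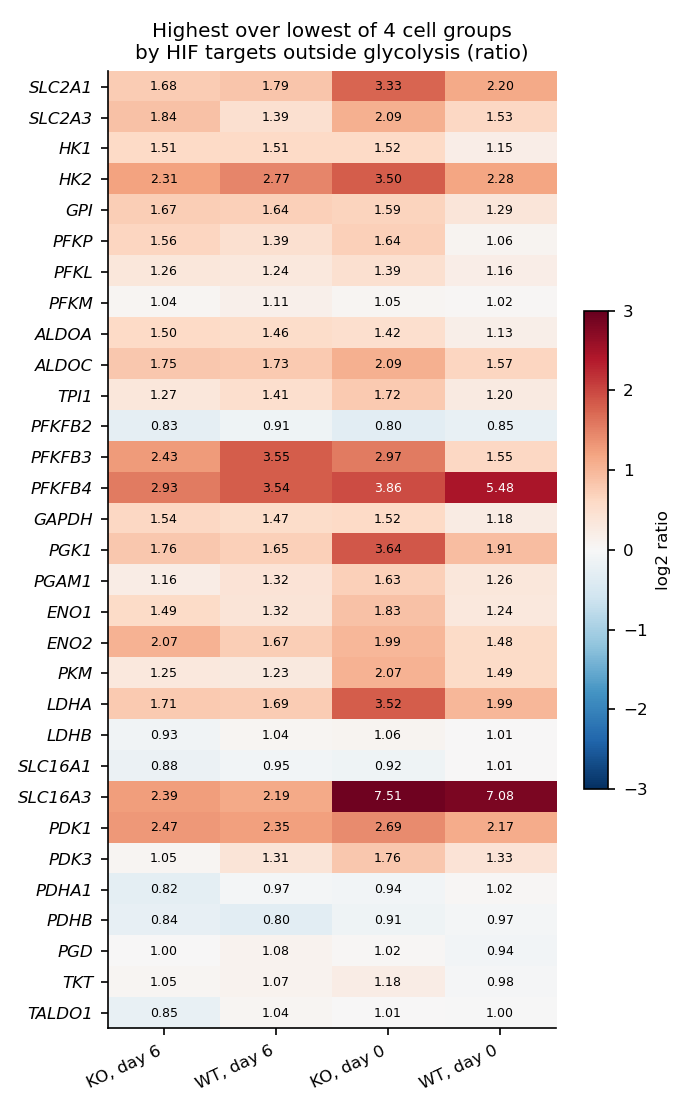
Ratio of each gene's level between the cells with the highest and the cells with the lowest sum of HIF targets outside glycolysis, within each library (thinned cells, 4 groups of equal size). Colour is the log2 ratio. SLC16A3 reaches 7.51 in the knockout and 7.08 in wild type at day 0, and PFKM stays between 1.02 and 1.11 in all 4 libraries.

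The sum of the 31 genes was also read within ranges of the HIF target sum. At day 0, in cells with 0 to 1 HIF target UMIs of 4000, the 31 genes averaged 45.7 UMIs (45.0 to 46.4) in 337 knockout cells and 41.1 (40.6 to 41.6) in 621 wild-type cells. With 4 to 6 HIF target UMIs the means were 48.6 (48.3 to 48.9) in the knockout and 42.2 (41.9 to 42.5) in wild type, and with 7 or more 67.1 (66.8 to 67.4) and 53.3 (52.8 to 53.7). The share of cells with 7 or more was 49.6% in the knockout and 18.4% in wild type, and HIF target sums within that open range were not matched between libraries. At day 6 the means were lower in the knockout in each range below 7. They were 56.2 in 10 knockout cells and 65.1 in 34 wild-type cells with 0 to 1 HIF target UMIs, 56.8 and 72.1 with 2 to 3, and 69.8 and 77.3 with 4 to 6. With 7 or more, which held 91.0% of knockout and 80.9% of wild-type cells, they were 98.7 and 96.3.

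Clusters were also made in each library without the 31 genes. In the knockout at day 0, a cluster of 1594 cells had 7 HIF targets among its 10 leading genes, and the 31 genes held 1.83% of its UMIs. A cluster of 764 cells led by CST1, APOA1 and mitotic genes held 1.77%, and the other 6 held 1.17% to 1.44%. In wild type at day 0 a cluster of 106 cells had 6 HIF targets among its leading genes and 1.88% of its UMIs from the 31 genes, and the other 8 held 0.993% to 1.36%. PGK1 stood at 1038 CPM in the knockout cluster of 1594 cells and 1017 CPM in the wild-type cluster of 106 cells. At day 6 no cluster had more than 1 HIF target among its leading genes.

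**Figure D5:**
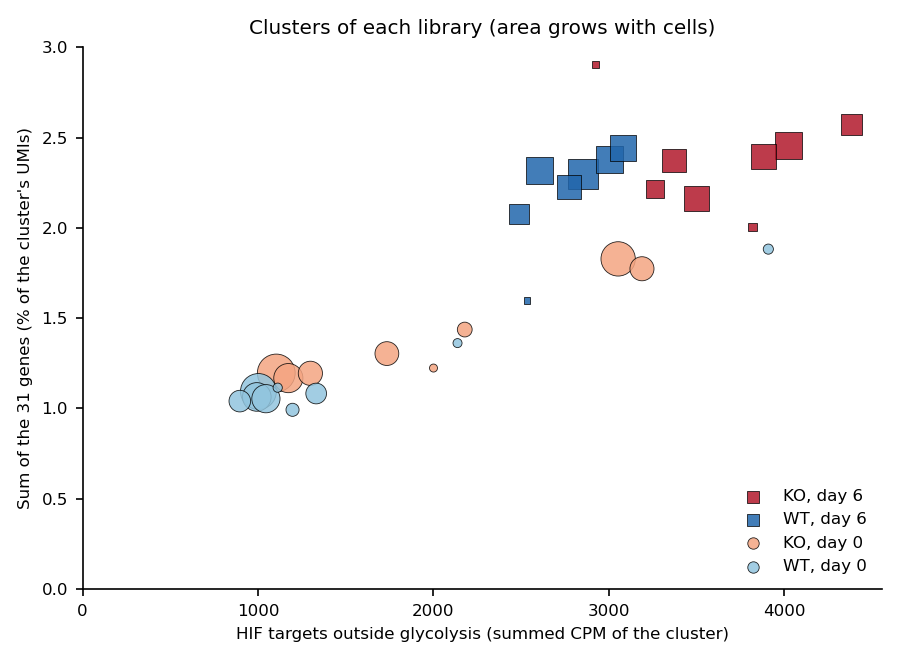
Each marker is a cluster of cells of 1 library, with the summed CPM of HIF targets outside glycolysis on the horizontal axis and the percentage of UMIs from the 31 genes on the vertical axis. Marker area grows with the number of cells. At day 0, 2 knockout clusters and 1 small wild-type cluster lie apart at 3054 CPM or more, and all day 6 clusters but 2 small ones lie at 2.08% or more.

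Without the hypoxia-led clusters of both genotypes, an alternative chosen after seeing the data, 4 of 30 genes were higher in the knockout at day 0, against 1.18% of all genes. They were SLC16A3 (3.18-fold), PFKFB4 (2.59-fold), PGK1 (1.59-fold) and HK2 (1.58-fold). The knockout cluster of 764 cells, with 1 HIF target among its leading genes, HIF targets at 3190 CPM and PGK1 at 1064 CPM, was not among those left out. In cells with at most 3 HIF target UMIs of 4000, also chosen after seeing the data, SLC16A3 was the 1 member called of 28 measured, at 2.44-fold, against 1% of all genes. PGK1 then had a ratio of 1.17, HK2 of 1.19 and SLC2A1 of 1.09, and PFKFB4, under 10 CPM in both libraries and so not measured, had 2.10. The median log2 ratio over the genes measured there was 0.15, and LDHA (0.905), ENO1 (0.943) and PFKM (0.938) lay below 1.

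Other measures moved with genotype as well, and their part in these results was not tested. At day 6 mesenchymal markers summed to 189 CPM in the knockout and 734 CPM in wild type, with 2 of 10 at 0 in wild type, and surface ectoderm markers summed to 802 CPM and 1549 CPM, with 3 of 9 at 0 in each. Median mitochondrial UMIs were 1.61% in the knockout and 2% in wild type at day 6, and 4.81% and 5.44% at day 0. Ribosomal protein genes held 28.0% and 32.1% of UMIs at day 6, and 24.9% and 24.2% at day 0. Of the 31 genes 0 lie on chromosome 20. Its share was taken over UMIs outside ribosomal protein and mitochondrially encoded genes. That share was under 2.6% in 56.4% of knockout cells and 0.651% of wild-type cells at day 0. At day 6 it was under 2.6% in 62.5% of knockout cells and 3.69% of wild-type cells. With knockout cells of 3% or more alone, which is the range of most wild-type cells, ALDOC was the 1 of the 8 genes no longer called at day 0 (1.46-fold).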

How the data were processed

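The authors deposited UMI counts, not normalized, for every barcode. Per the submitters' processing notes they used Cell Ranger 6.1.2 with GRCh38, while the matrix header names Cell Ranger 4. No source used here gives the annotation version. Empty droplets are among the barcodes, so cells were taken here as barcodes with at least 4000 UMIs, 1000 genes and at most 20% mitochondrial UMIs, which removed 2 wild-type cells at day 0. Doublets were kept. An alternative left out the 5% of cells with most UMIs. Groups came from the labels of genotype and day.

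Counts were summed over cells and scaled to 1000000. Ratios carry exact conditional binomial (Clopper-Pearson) intervals, levels exact Poisson intervals and shares exact binomial intervals, at 95%. Log2 ratios used a prior count of 0.5. Calls need 10 CPM, 1.5-fold and an interval excluding 1. The calculation was tested on simulated data. UMIs remove most amplification copies, so intervals cover counting error only. Free RNA was profiled from barcodes with 1 to 50 UMIs. Clusters used log values of counts scaled to 10000, 2000 variable genes without the 31, 30 components, 15 neighbours and Leiden resolution 0.5. Positions came from GENCODE 29 by Ensembl identifier. Software was Python 3.11.15, SciPy 1.17.1, scikit-learn 1.9.0, leidenalg 0.10.2, R 4.3.3 and edgeR 4.0.16 (TMM factors alone, no test).

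Members and lists were chosen with earlier results of these data known. Full values are given for members called between genotypes or 2-fold between days, and promoters are shown for the 3 largest day 0 ratios between genotypes. Of other lists, called genes are named, at most 6 per list, and some are not reported here. Alternatives covered scaling, cell calling, thinning, free RNA, the size limits, chromosome 20 and cell makeup.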

Additional observations from a re-analysis of the deposited data

Results flagged for a closer look

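SLC2A3 was picked out because its knockout ratio went opposite ways at the 2 days, by at least 1.2-fold each way as reported. Both directions also had to hold under every alternative. Over the alternatives run the ratio was 0.571 to 0.696 at day 6 and 1.01 to 1.297 at day 0, and the lowest day 0 value came from cells with at most 3 HIF target UMIs. The log2 ratio was -0.56 at day 6 and 0.31 at day 0, and the day 6 value minus the day 0 value was -0.87 (counting interval -0.90 to -0.85). Each group held 1 library, so the difference between days was not tested. Its copy SLC2A14 shares near-identical sequence, and counts of the pair are uncertain. LDHA met the 1.2-fold part of the rule too, with log2 ratios of -0.45 at day 6 and 0.47 at day 0. The day 6 value minus the day 0 value was -0.91 for LDHA. It was not picked out, because its day 0 ratio was 0.905 in cells with at most 3 HIF target UMIs.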

How the results depend on the processing

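At day 6 the counts of members higher and lower in the knockout were 5 and 0, and moved with scaling to 3 and 2 (TMM), 3 and 1 (without ribosomal and mitochondrially encoded genes) and 2 and 2 (over the median ratio of all genes). The lower count was also 1 with no minimum level and in clusters of no other class, and the higher count was 1 at a 2-fold limit. At day 0 the higher count of 8 was 2 at a 2-fold limit, 4 without hypoxia-led clusters and 1 in cells with at most 3 HIF target UMIs. Between days in the knockout the lower count of 2 was 1 at a 2-fold limit. In wild type the higher count of 18 was 10 at a 2-fold limit, and the lower count of 4 was 2 at a 2-fold limit and 2 with TMM. All other counts stayed within 1.5 times those reported. Of 605 alternative values of called members, 361 lay within the counting interval, 244 moved outside it and 0 changed direction. Having no minimum level or a 2-fold limit leaves each ratio as it was, so those values could not move. Since called members start at 1.5-fold or more, a change of direction would also have needed a large shift. The settings on hypoxia-led clusters and on HIF target UMIs were chosen after seeing the data. No paired analysis was possible because each group held 1 library. Coding genes overlap 5 members on the same strand, which are PFKFB4, ALDOA, ALDOC, PGK1 and ENO2. GAPDH, PGK1 and LDHA have near-identical processed copies. Counts of all these members are therefore uncertain. Genes near 10 CPM and shares at 4000 UMIs per cell are limited by depth.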

Other observations

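By cell cycle phase score in cells thinned to 4000 UMIs, the 31 genes averaged 103 UMIs per cell in G1, 92.6 in S and 92.4 in G2 and M in the knockout at day 6. In wild type at day 6 the means were 93.2, 91.7 and 92.2. At day 0 they were 59.7, 55.6 and 57.2 in the knockout and 44.9, 43.4 and 43.7 in wild type. Phase scores also read free RNA. By chromosome 20 share at day 0, the 31 genes held 1.32% of UMIs in knockout cells with 3% or more and 1.43% in those under 2.6%, against 1.08% in wild-type cells with 3% or more.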
